A study of Homo sapiens with 12 samples.

Results

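The Notch signalling genes examined here were 10 of the 58735 genes counted in HK-2 cells: the ligands JAG1 and JAG2, the receptors NOTCH1, NOTCH2 and NOTCH3, and the target genes HES1, HES4, HEY1, HEYL and NRARP. They were chosen by name for their role in the pathway, with earlier results of these data known. All 10 passed the filter on low counts in every comparison. HK-2 is an immortalized cell line from the human renal proximal tubule, and every sample came from this 1 line. RNA was sequenced in 12 samples, 3 in each of 4 groups. The control group received water, and the other groups received iohexol at 75 mg I/mL, cisplatin at 5 μM or vancomycin at 4 mM for 48 h. Iohexol is an iodinated contrast medium, cisplatin is a platinum compound used against tumors and vancomycin is a glycopeptide antibiotic, and each can injure the kidney tubule. The libraries were made from poly(A)-selected RNA. Nothing states that the samples of a group came from separate cultures, so the p-values measure only the spread between these samples, which may be technical.

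Notch receptors are read by contact between neighbouring cells. A Jagged or Delta ligand on one cell binds the receptor on the next, ADAM proteases and then the gamma-secretase complex cut the receptor, and the released intracellular domain joins the DNA-binding protein RBPJ and a Mastermind co-activator in the nucleus to switch on genes such as HES and HEY repressors and NRARP. In the kidney the pathway takes part in forming the proximal nephron, and it is known to be active again in injured tubules. Messenger RNA levels of its genes do not measure receptor cleavage.

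The HES1, HES4 and NRARP promoters are shown as examples from the targets that were differentially expressed with at least 1 of the drugs. HES1 was a down-regulated gene with iohexol, HES4 was an up-regulated gene with vancomycin, and NRARP was a down-regulated gene with vancomycin, all by the tests given below. The stretches are from the RefSeq promoter table on GRCh38.p14, written 5′ to 3′ on the strand of the gene, and the capitals mark TGGGAA, the core letters of the RBPJ motif.
HES1, chr3:194135898-194136137, plus strand, 250 to 11 bases before the start: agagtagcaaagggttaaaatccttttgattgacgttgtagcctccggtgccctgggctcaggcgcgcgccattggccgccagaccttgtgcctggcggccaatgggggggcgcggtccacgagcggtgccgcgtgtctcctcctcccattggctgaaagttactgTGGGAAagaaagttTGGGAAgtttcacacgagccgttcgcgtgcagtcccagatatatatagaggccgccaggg
HES4, chr1:1000156-1000185, minus strand, 88 to 59 bases before the start: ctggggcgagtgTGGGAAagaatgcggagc
NRARP, chr9:137302272-137302521, minus strand, 250 to 1 bases before the start: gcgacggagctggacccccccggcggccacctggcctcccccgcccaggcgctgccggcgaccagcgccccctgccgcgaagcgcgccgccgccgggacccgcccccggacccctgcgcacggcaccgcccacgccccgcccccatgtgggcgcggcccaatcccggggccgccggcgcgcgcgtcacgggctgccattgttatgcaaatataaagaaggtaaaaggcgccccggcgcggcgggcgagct
HES1 carried the letters at 84 and 70 bases before its start, on the same strand and 14 bases apart. HES4 carried them once, at 76 bases, and like the upstream HES1 match it was preceded by a G (GTGGGAA, 5.43% of promoters). NRARP held no match on either strand in its 250 bases.

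The table matched 9 of the 10 genes, all but HEY1. Searching both strands of the 250 bases before each start, HEYL held TGGGAA at 178 bases on the opposite strand and at 99 bases on its own strand, and JAG1, JAG2, NOTCH1, NOTCH2 and NOTCH3 held none. Of all 35116 promoters in the table, 20.8% held TGGGAA on either strand and 2.9% held it 2 or more times. A pair whose starts lay within 30 bases of each other, as in HES1, was found in 0.649%. A match is a description of the letters and not a measured binding site.

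The deposited table gives positions that match GENCODE release 29 on GRCh38 for all 10 genes. The ligands JAG1 (ENSG00000101384, chr20:10637684-10673999) and JAG2 (ENSG00000184916, chr14:105140981-105168824) lie on minus strands. So do the receptors NOTCH1 (ENSG00000148400, chr9:136494433-136545786), NOTCH2 (ENSG00000134250, chr1:119911553-120069626) and NOTCH3 (ENSG00000074181, chr19:15159038-15200981). HES1 (ENSG00000114315, chr3:194136145-194138732) is the one gene of the 10 on a plus strand. The other targets are HES4 (ENSG00000188290, chr1:998962-1000172), HEY1 (ENSG00000164683, chr8:79764010-79767863), HEYL (ENSG00000163909, chr1:39624153-39639945) and NRARP (ENSG00000198435, chr9:137300482-137302251). In GENCODE the HES4 gene begins farther upstream than in RefSeq, so the HES4 stretch shown above overlaps its first bases. NOTCH2 shares 24.97% of its 31-base sequences with other genes, among them the NOTCH2NL copies and NBPF genes, so its level is uncertain. JAG2 shares 3.471%, NOTCH3 1.081% and the other 7 none. Antisense genes that overlap JAG1 and NOTCH1 held 45 and 60 reads over the 12 samples.

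Total counts per sample lay between 14057282 and 18177109. TMM factors, which correct the totals for composition, were highest in the cisplatin group (1.12 to 1.13) and lowest in the vancomycin group (0.885 to 0.898). They spanned 0.961 to 0.976 for control and 1.02 to 1.04 for iohexol samples. Of 11 proximal tubule markers, GGT1 was at 189.5 CPM in the control group while LRP2 and SLC22A6 had 0 counts there and HNF4A at most 2 per sample. The epithelial keratins KRT8 and KRT18 were at 493.5 and 174.1 CPM in the control group and CDH1 was at 0.213. Summed CPM of the proximal list ran from 121 to 215 in the control, iohexol and cisplatin samples and from 359.5 to 387 with vancomycin. GGT1 carried this sum, with a mean of 363 CPM with vancomycin. The next gene of the list there was ANPEP, at 1.44 CPM in the control group and 1.39 with vancomycin. Summed epithelial markers were 634 to 852 in the control and iohexol samples and 1228 to 1346 with cisplatin or vancomycin. KRT8 and KRT18 carried this sum, while EPCAM went from 101 CPM in the control group to 35.4 with cisplatin and 76.9 with vancomycin. The 6 fibroblast markers summed to 105 to 129 outside the vancomycin group and 241 to 277 within it, led by LUM, with COL1A2 at 0 in the control and vancomycin samples. Sums over 5 endothelial markers (at most 4.28), 5 leukocyte markers (at most 3.69) and 4 markers of other tubule segments (at most 2.07) were low in every sample, and 3 podocyte markers summed to 5.61 to 22.4. These shifts moved with the drug groups, and their part in the results below was not tested. In bulk RNA, fewer cells that express a gene and less RNA of it per cell cannot be told apart.

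Levels are given as CPM, the counts brought to a common library total after scaling with the TMM factors. Per kilobase of the gene length in the table, JAG1 stood at 71.8 ± 0.578 CPM per kb (SD, n = 3) in the control group and HES4 at 65.5 ± 1.44. NOTCH2 followed at 37.6 ± 1.36 and NOTCH3 at 33.8 ± 2.17, with overlapping samples. HES1 was at 23.7 ± 1.73, NOTCH1 at 19.0 ± 1.17 and NRARP at 11.35 ± 1.25. JAG2 was at 6.67 ± 0.672, HEY1 at 1.73 ± 0.377 and HEYL, the lowest, at 0.3315 ± 0.0646.

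**Figure D1:**
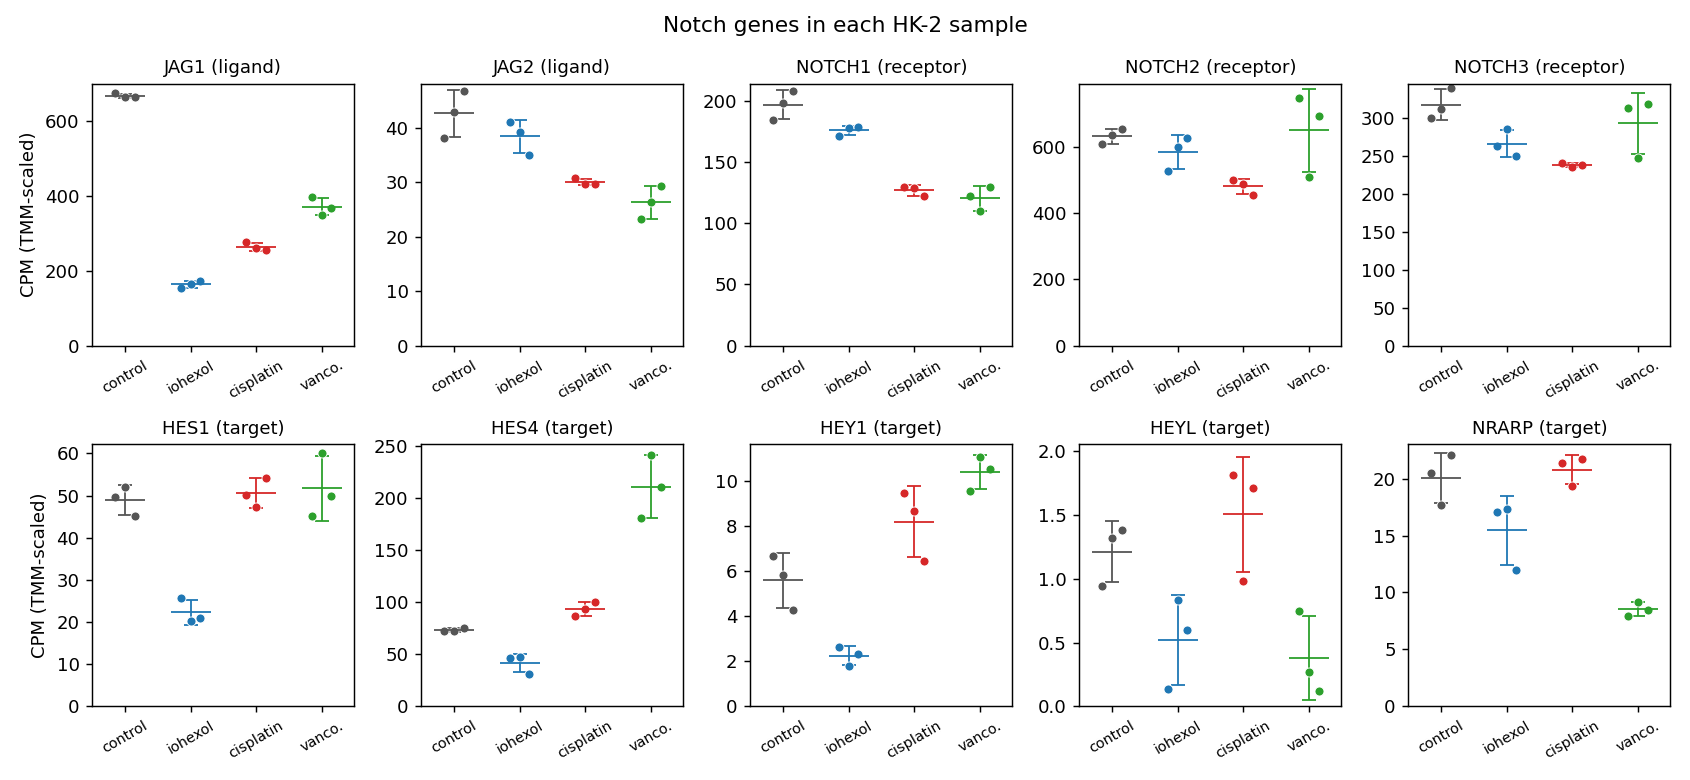
Level of each of the 10 Notch genes (CPM, TMM-scaled, linear axis from 0) in the 12 samples. Points are samples, long marks are group means and bars are 1 SD of 3 samples. All drug-treated samples lie below every control sample for JAG1, iohexol samples lie lowest for HES1, HES4 and HEY1, and vancomycin samples lie highest for HES4 and lowest for NRARP.

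Each drug was compared with the same 3 control samples, so the 3 comparisons are not independent of each other. A gene is called higher or lower at an adjusted p under 0.05 by edgeR's quasi-likelihood test with Benjamini-Hochberg adjustment over all genes tested, and a differentially expressed gene (DEG) also had a log2 fold change above 1 or below -1. With iohexol 4 of the 10 genes were lower (JAG1, HES1, HES4, HEY1) and 0 higher, where 21.0% of 15657 genes passed in either direction and 9.77% were lower. The count of 0 higher was the same at an unadjusted p under 0.05 and with DESeq2 or limma-voom. The median log2 fold change of the 10 genes was -0.57, against 0.01 over all genes. With cisplatin 5 were lower (JAG1, JAG2, NOTCH1, NOTCH2, NOTCH3) and 2 higher (HES4, HEY1), where 59.8% of 15876 genes passed, 30.6% lower and 29.2% higher, and the median was -0.18 against 0.01. With vancomycin 5 were lower (JAG1, JAG2, NOTCH1, HEYL, NRARP) and 2 higher (HES4, HEY1), where 57.9% of 15819 genes passed, 28.8% lower and 29.1% higher, and the median was -0.45 against -0.01. A share of 7 in 10 therefore stood beside a background of more than 1 gene in 2 for cisplatin and vancomycin. DEGs were JAG1, HES1 and HEY1 with iohexol (1.25% of genes were down-regulated DEGs), JAG1 with cisplatin (8.72%), and HEYL and NRARP (7.65%) with HES4 in the other direction (10.8% were up-regulated DEGs) with vancomycin. The samples of drug and control did not overlap for 8 genes with iohexol, 6 with cisplatin and 7 with vancomycin, beside 37.9%, 65.1% and 63.2% of all genes tested. HEYL entered the iohexol and vancomycin comparisons through the counts of the control samples, where it was higher than with either drug. Neither a p nor a fold is therefore given for it there. It stays in the vancomycin counts as 1 of the 5 lower genes and 1 of the 2 down-regulated DEGs.

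**Figure D2:**
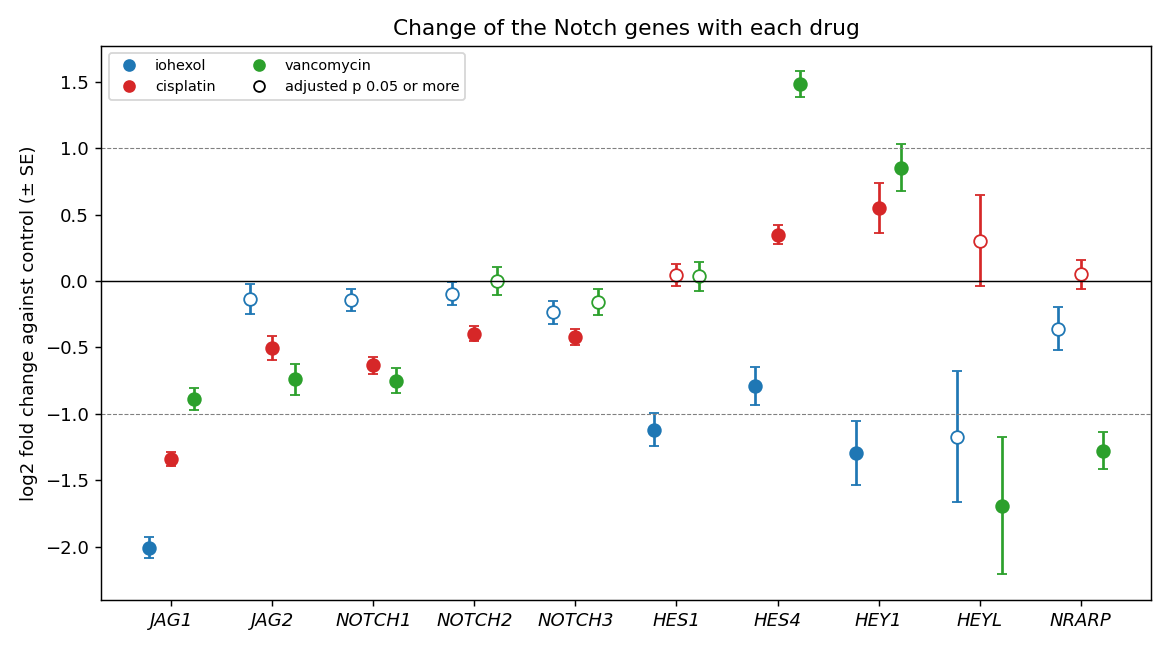
Log2 fold change against control (vertical axis) of each Notch gene with iohexol, cisplatin and vancomycin. Points are edgeR estimates, bars 1 SE, open points had an adjusted p of 0.05 or more, and dashed lines mark a log2 fold change of 1 and -1. HEYL points for iohexol and vancomycin are drawn but not read as results, since HEYL entered those comparisons through the control samples. JAG1 lies below 0 for all 3 drugs, while HES4 and HEY1 lie below 0 for iohexol and above 0 for cisplatin and vancomycin.

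JAG1, the main Jagged ligand of these cells, was lower with every drug. It was at 674, 664 and 665 CPM in the control samples, 154, 165 and 173 with iohexol, 276, 260.1 and 257 with cisplatin and 396, 350.1 and 368 with vancomycin. The 4 groups did not overlap at any point. The log2 fold change was -2.01 (SE 0.08, adjusted p = 2.72e-08) with iohexol, a 4.02-fold lower level, and -1.34 (SE 0.05, adjusted p = 1.36e-12) with cisplatin, 2.53-fold lower. With vancomycin it was -0.89 (SE 0.08, adjusted p = 3.70e-09), 1.85-fold lower and short of the DEG threshold. The drugs differed from each other too, in the fit of all 12 samples. JAG1 was higher with cisplatin than with iohexol (log2 difference 0.68, adjusted p = 1.55e-07), higher with vancomycin than with iohexol (1.18, adjusted p = 5.68e-11) and higher with vancomycin than with cisplatin (0.49, adjusted p = 6.65e-06). Scaled by library size only, this last difference was 0.16 (adjusted p = 0.0599).

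JAG2, a second Jagged ligand that binds the same receptors, was at 38.2, 42.9 and 46.8 CPM in the control samples, 41.0, 39.2 and 35.1 with iohexol, 30.8, 29.7 and 29.8 with cisplatin and 23.3, 26.5 and 29.3 with vancomycin. Iohexol samples overlapped the control samples, and the other 2 groups lay wholly below them. On the log2 scale its fold change was -0.13 (adjusted p = 0.45) with iohexol, -0.51 (adjusted p = 9.91e-05) with cisplatin and -0.74 (adjusted p = 7.72e-06) with vancomycin. Cisplatin and vancomycin did not differ past the threshold for JAG2 (-0.19, SE 0.11, adjusted p = 0.129).

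The proportions of the 2 ligands were compared as well. JAG1 made up 92.4% to 90.7% of the summed length-scaled level of both ligands in the control samples, with a mean of 91.5% ± 0.835 (SD, n = 3). The mean was 74.6% ± 2.60 with iohexol, a difference of -16.9 percentage points, and 85.8% ± 0.235 with cisplatin, a difference of -5.72 points. No iohexol or cisplatin sample reached the lowest control sample, and the exact two-sided permutation p was 0.1 for each, the smallest that 10 splits of 3 against 3 allow. With vancomycin the share was 90.6% ± 1.33, a difference of -0.88 points that lay within the spread of the samples (exact permutation p = 0.4).

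**Figure D3:**
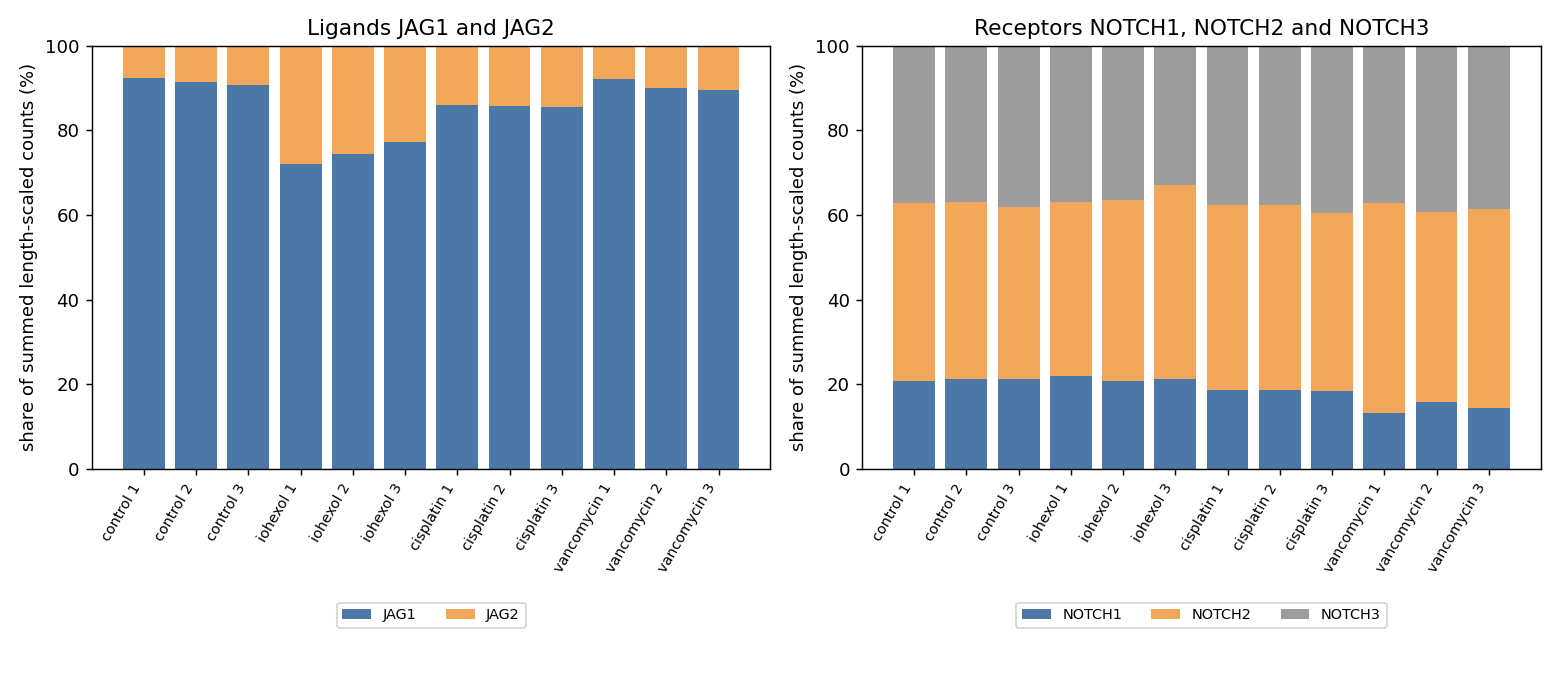
Share (%, axis from 0 to 100) of each ligand and each receptor in the summed length-scaled counts of its family, 1 bar for each of the 12 samples. The JAG1 part is smallest in the iohexol samples, with a mean of 74.6%, and the NOTCH1 part is smallest in the vancomycin samples, with a mean of 14.4%.

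Among the 3 receptors NOTCH1 fell most with cisplatin and with vancomycin. It was at 184, 198 and 209 CPM in the control samples, 171, 178 and 178 with iohexol, 130.1, 129 and 122 with cisplatin and 122, 109.7 and 129.7 with vancomycin. Every cisplatin and vancomycin sample lay below every control and iohexol sample. Its log2 fold change was -0.63 (adjusted p = 1.53e-07) with cisplatin and -0.75 (adjusted p = 2.02e-07) with vancomycin. With iohexol it was -0.15 (SE 0.08), which did not pass (adjusted p = 0.246) although the samples did not overlap. The difference between vancomycin and cisplatin was -0.08 (SE 0.08, adjusted p = 0.416).

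NOTCH2, the receptor with the most counts, was at 608, 634 and 653 CPM in the control samples, 527, 599 and 628 with iohexol, 499, 488 and 456 with cisplatin and 747, 508 and 693 with vancomycin. Only the cisplatin group lay wholly below the control group (-0.40, adjusted p = 8.67e-06). Vancomycin replicate 2 stood far below the other two of its group, and the fold change of that group was -0.00 (SE 0.11, adjusted p = 0.999). NOTCH3 had the same low sample. It was at 301, 312 and 340.4 CPM in the control samples, 263, 286 and 251 with iohexol, 240.3, 236 and 238 with cisplatin and 314, 247 and 318 with vancomycin. Its log2 fold change was -0.24 (adjusted p = 0.0799) with iohexol, -0.42 (adjusted p = 9.61e-06) with cisplatin and -0.16 (adjusted p = 0.174) with vancomycin.

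The receptors differed between cisplatin and vancomycin in NOTCH2 (higher with vancomycin by 0.43, adjusted p = 0.00129) and NOTCH3 (0.30, adjusted p = 0.00638), which was not so with library size only (0.10 and -0.03). Between vancomycin and iohexol neither passed (0.15 with adjusted p = 0.228 for NOTCH2, 0.14 with adjusted p = 0.2 for NOTCH3). Without vancomycin replicate 2 these 2 differences were 0.30 and 0.25, with adjusted p = 0.00459 and adjusted p = 0.0129. Within the summed length-scaled level of the 3 receptors, NOTCH1 made up 21.0% ± 0.285 in the control group, 21.2% ± 0.576 with iohexol, 18.5% ± 0.186 with cisplatin and 14.4% ± 1.30 with vancomycin (exact permutation p = 0.7, 0.1 and 0.1 against control). NOTCH2 rose in proportion, from 41.6% ± 0.673 to 47.2% ± 2.27 with vancomycin (exact permutation p = 0.1), and was 43.4% ± 2.37 with iohexol and 43.2% ± 0.858 with cisplatin (p = 0.3 and 0.1 by the same exact test). NOTCH3 made up 37.4% ± 0.597 in control and 35.4% ± 2.23 with iohexol (exact permutation p = 0.1). These groups only just did not overlap: iohexol replicate 1 was at 36.88%, control replicate 2 at 36.9% and iohexol replicate 3 at 32.86%. The NOTCH3 share was 38.3% ± 1.01 with cisplatin and 38.4% ± 1.00 with vancomycin (p = 0.3 and 0.2 by the same exact test).

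The target genes moved in 3 patterns. HES1, the best known direct Notch target and a repressor of differentiation genes, was at 49.7, 52.1 and 45.1 CPM in the control samples, 25.6, 20.3 and 20.9 with iohexol, 50.2, 47.3 and 54.2 with cisplatin and 45.1, 60.1 and 49.9 with vancomycin. Iohexol samples lay below every other sample, and the remaining 3 groups overlapped. Against control the log2 fold change was -1.12 (SE 0.12, adjusted p = 6.09e-05) with iohexol, 0.05 (SE 0.08, adjusted p = 0.648) with cisplatin and 0.03 (SE 0.11, adjusted p = 0.809) with vancomycin. Against iohexol, HES1 was higher with cisplatin (1.18, adjusted p = 5.50e-08) and with vancomycin (1.21, adjusted p = 3.44e-08). Vancomycin and cisplatin differed by 0.03 (adjusted p = 0.827), which became -0.30 with library size only (adjusted p = 0.0196, the lowest of the alternatives, whose highest was 0.983).

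HES4, another HES family repressor, and HEY1, a related repressor that acts in vessel and heart development, were lower with iohexol and higher with the other 2 drugs. HES4 was at 72.2, 72.2 and 75.0 CPM in the control samples, 45.9, 47.8 and 31.5 with iohexol, 86.9, 93.1 and 99.9 with cisplatin and 180.4, 241 and 210.5 with vancomycin. The 4 groups did not overlap. The log2 fold change was -0.79 (SE 0.14, adjusted p = 0.00212) with iohexol, 0.35 (SE 0.07, adjusted p = 0.000361) with cisplatin and 1.48 (SE 0.10, adjusted p = 6.75e-12) with vancomycin, a 2.79-fold higher level. HES4 was 5.04-fold higher with vancomycin than with iohexol (log2 difference 2.33, adjusted p = 7.38e-12), and it was higher with vancomycin than with cisplatin (1.17, adjusted p = 5.15e-08).

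HEY1 was at 6.67, 5.83 and 4.27 CPM in the control samples, 2.63, 1.79 and 2.34 with iohexol, 9.45, 8.68 and 6.44 with cisplatin and 9.57, 11.1 and 10.5 with vancomycin. Iohexol samples were all lower and vancomycin samples all higher than the control samples, and 1 cisplatin sample lay within the control range. On the log2 scale its fold change was -1.29 (SE 0.24, adjusted p = 0.0029) with iohexol and 0.85 (SE 0.18, adjusted p = 0.000267) with vancomycin. With cisplatin it was 0.55 (SE 0.19, adjusted p = 0.0177). That call was lost without control replicate 3 (0.38, adjusted p = 0.0917), cisplatin replicate 1 (0.43, adjusted p = 0.0982) or cisplatin replicate 2 (0.51, adjusted p = 0.0576), and over all alternatives the adjusted p ran from 0.00176 to 0.0982. Both drugs lay above iohexol, by 1.86 for cisplatin (adjusted p = 3.55e-07) and 2.21 for vancomycin (adjusted p = 2.48e-08), and differed from each other by 0.34 (SE 0.18, adjusted p = 0.0988).

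NRARP was a down-regulated DEG with vancomycin, and HEYL was counted as 1 on few reads. NRARP, a small ankyrin-repeat protein that is induced by Notch and dampens it, was at 20.5, 17.7 and 22.03 CPM in the control samples, 17.1, 17.3 and 12.0 with iohexol, 21.3, 19.3 and 21.7 with cisplatin and 7.94, 9.18 and 8.44 with vancomycin. Vancomycin samples lay below all other samples, at -1.28 (SE 0.14, adjusted p = 3.37e-08), a 2.43-fold lower level. The fold change was -0.36 (SE 0.16, adjusted p = 0.141) with iohexol and 0.05 (SE 0.11, adjusted p = 0.717) with cisplatin. Vancomycin also lay below cisplatin (-1.29, adjusted p = 1.50e-07) and iohexol (-0.86, adjusted p = 4.88e-05) in NRARP. In the same vancomycin samples HES4 and HEY1 were higher than control, so targets with opposite directions stood side by side in 1 group.

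HEYL, the third HEY family repressor, was counted few times. It had 13, 21 and 21 reads in the control samples, 2, 13 and 9 with iohexol, 30, 16 and 29 with cisplatin and 12, 4 and 2 with vancomycin. In CPM this was 0.943, 1.32 and 1.38, then 0.138, 0.8315 and 0.601, then 1.82, 0.985 and 1.71, and 0.751, 0.27 and 0.123. The vancomycin and iohexol samples all lay below the control samples. With cisplatin its log2 fold change was 0.30 (SE 0.34, adjusted p = 0.46). For vancomycin and iohexol neither a p nor a fold is given, since HEYL entered those comparisons through the control samples. Its call as lower with vancomycin was lost without vancomycin replicate 3. It was not tested where at least 10 counts were required in every sample.

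Compared directly, cisplatin and iohexol differed for 9 of the 10 genes, where 54.0% of 17073 genes passed. All 5 targets were higher with cisplatin than with iohexol, as was JAG1, while JAG2, NOTCH1 and NOTCH2 were lower. NRARP was higher by 0.43 (adjusted p = 0.0121), and NOTCH2 was lower by -0.28 (adjusted p = 0.03). HEYL entered the fit of all 12 samples through the control and cisplatin samples, where it was higher. Neither a p nor a fold is therefore given for it against cisplatin, and it stays in the counts only. The calls of these 3 genes were lost when single samples were left out. For HEYL this was without iohexol replicate 1, cisplatin replicate 1 or cisplatin replicate 3, and for NRARP without iohexol replicate 3 (0.27). For NOTCH2 it was without iohexol replicate 2 or 3 or cisplatin replicate 2 or 3 (-0.27, -0.23, -0.29 and -0.24). With library size only, NOTCH2 (-0.15) and JAG2 (-0.23) did not pass either, with the highest adjusted p of their alternatives (0.235 from a lowest of 0.00281, and 0.0803 from 0.00188). Vancomycin and iohexol differed for 7 genes (56.6% of genes): JAG1, HES1, HES4 and HEY1 were higher and JAG2, NOTCH1 and NRARP lower with vancomycin. Vancomycin and cisplatin differed for 6 (64.7%): JAG1, NOTCH2, NOTCH3 and HES4 were higher and HEYL and NRARP lower with vancomycin.

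The wider pathway was followed in 62 other genes in 8 lists by role. Of these, 49 passed the filter in the iohexol comparison, where 7 were higher and 8 lower (30.6%, beside 21.0% of all genes). In the cisplatin comparison 50 passed, 11 higher and 26 lower (74.0%, beside 59.8%), with a median log2 fold change of -0.24. In the vancomycin comparison 51 passed, 14 higher and 20 lower (66.7%, beside 57.9%). Where a list is given below with 0 genes in a direction by edgeR, DESeq2 and limma-voom also gave 0, and at an unadjusted p under 0.05 it was 1 gene for receptor glycosylation and for co-repressors with iohexol and 0 otherwise, apart from the cleavage list. The DEGs among them numbered 3 with iohexol, 7 with cisplatin and 6 with vancomycin. Of these, 1, 7 and 2 were down-regulated, beside 1.25%, 8.72% and 7.65% of all genes. With vancomycin 4 were up-regulated, beside 10.8% of all genes. With iohexol 2 were up-regulated, and the share over all genes is not reported here. All these DEG counts are kept as description. These counts include genes that entered through 1 group only: NEURL1 with iohexol, NEURL1B, DTX1 and DNER with cisplatin, and DLL4 with vancomycin. With each sample left out in turn, the iohexol DEGs DLL3 (0.975 to 1.09) and TLE3 (-1.18 to -0.955) crossed the fold threshold. So did LFNG with vancomycin (-1.12 to -0.985) and DNER with cisplatin.

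**Figure D4:**
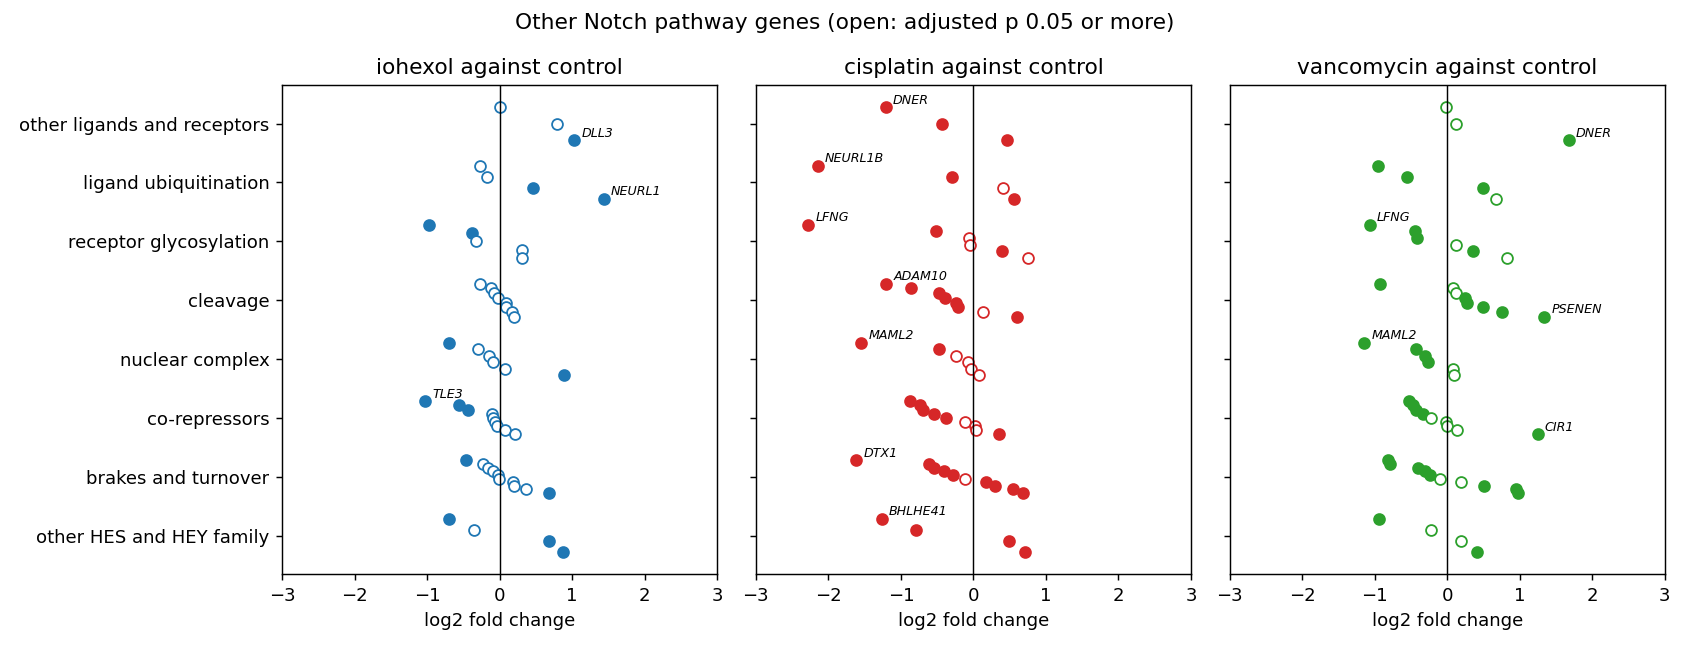
Log2 fold change against control (horizontal axis) of the other Notch pathway genes that passed the filter, in 8 lists by role, 1 panel for each drug. Filled points had an adjusted p under 0.05 and named points were DEGs, DLL4 is not drawn because its control samples held 1 read in all, and LFNG lies below -0.9 in each panel. Some drawn genes entered through a single group, and their points are not read as results. They are NEURL1 with iohexol, NEURL1B, DTX1 and DNER with cisplatin, and MFNG with cisplatin and vancomycin.

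Of the enzymes that add sugars to the receptor, LFNG, which sets how receptors respond to Jagged and Delta ligands, fell with all 3 drugs. Its mean was 161 ± 11.4 CPM (SD, n = 3) in the control group, 80.6 ± 8.57 with iohexol, 33.3 ± 0.627 with cisplatin and 79.0 ± 7.63 with vancomycin. Every drug-treated sample lay below every control sample. Against control the log2 fold change was -0.98 (adjusted p = 4.50e-05), -2.27 (adjusted p = 7.85e-14) and -1.07 (adjusted p = 9.59e-10) in that order. Its relative RFNG was at -0.51 (adjusted p = 0.00197) with cisplatin, a call that missed with library size only (-0.29, adjusted p = 0.0501, the highest of the alternatives, whose lowest was 4.30e-05). RFNG overlaps GPS1 on the opposite strand, which held 18706 reads beside its own 4127 over all samples, and the reads of the overlap cannot be told apart because the strand setting of the counting is not stated. MFNG, the third Fringe, did not pass in the 2 comparisons where it was tested, cisplatin and vancomycin. It had 5 to 12 reads in the control samples, 11 to 18 with cisplatin and 11 to 17 with vancomycin. MFNG entered those comparisons through the counts of the drug samples, so neither a p nor a fold is given. Of the receptor glycosylation list, 0 genes were higher and 2 lower of 5 with iohexol, 1 and 2 of 6 with cisplatin, and 1 and 3 of 6 with vancomycin.

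Of the cleavage list, 0 of 8 genes passed with iohexol in edgeR's test (21.0% of all genes did), and 0 with DESeq2 or limma-voom, while at an unadjusted p under 0.05 it was 1 gene, lower. With cisplatin 6 were lower and 1 higher, 87.5% beside 59.8% of all genes. ADAM10, the protease of the first ligand-induced cut, was at 288 ± 27.6 CPM in the control group and 125 ± 3.39 with cisplatin (-1.20, adjusted p = 1.60e-10), and ADAM17, a related protease, fell by 0.86 on the log2 scale (adjusted p = 2.82e-08). ADAM17 and NCSTN overlap IAH1 and COPA on the opposite strand, and since the strand setting of the counting is not stated their reads cannot be told apart there. Of the gamma-secretase subunits, NCSTN was at -0.39 (adjusted p = 0.000145) and PSEN2 was at 0.14 (adjusted p = 0.398). The higher gene was PSENEN (0.60, adjusted p = 0.0219), a call lost without control replicate 1 (0.30) or cisplatin replicate 1 (0.58), with DESeq2 (0.62) and in the fit of all 4 groups (0.60), within an adjusted p of 0.000757 to 0.155.

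With vancomycin 5 genes of the cleavage list were higher and 1 lower, 75.0% beside 57.9% of all genes. ADAM10 was again lower, at 156 ± 13.2 CPM (-0.93, adjusted p = 1.14e-08), and ADAM17 was higher (0.50, adjusted p = 3.97e-05). PSENEN, also a gamma-secretase subunit, was at 7.33 ± 3.09 CPM in the control group and 19.2 ± 2.49 with vancomycin (1.34, adjusted p = 5.13e-06), but it shares 25.17% of its 31-base sequences with other genes. NCSTN was at 0.27 (adjusted p = 0.0099) and missed without vancomycin replicate 3 (0.24, adjusted p = 0.0515) and with library size only (0.19), within a range of 0.00209 to 0.0554. PSEN2 (0.08, adjusted p = 0.63) did not pass.

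In the nucleus, RBPJ, through which all Notch receptors act, was at 135 ± 13.3 CPM in the control group and 125 ± 15.9 with iohexol (-0.10, adjusted p = 0.573). It was lower with cisplatin (97.8 ± 2.69 CPM, -0.47, adjusted p = 3.32e-05) and with vancomycin (113 ± 9.78 CPM, -0.30, adjusted p = 0.00955), the latter missing without vancomycin replicate 3 (-0.24, adjusted p = 0.0761, the highest of a range from 0.000644). The co-activator MAML2 fell with each drug, from 16.4 ± 1.18 CPM to 10.1 ± 1.11, 5.63 ± 0.950 and 7.65 ± 0.717 (-0.69, -1.55 and -1.15, adjusted p = 0.00431, 5.46e-08 and 3.29e-07). Its relative MAML1 was at -0.30 (adjusted p = 0.0526) with iohexol, -0.08 (adjusted p = 0.368) with cisplatin and -0.27 (adjusted p = 0.0256) with vancomycin. The last call was lost without control replicate 2 (-0.28), control replicate 3 (-0.27) or vancomycin replicate 2 (-0.19), with an adjusted p from 0.00511 to 0.123 over the alternatives. Counts for the nuclear complex were 1 higher and 1 lower of 6 with iohexol, 0 and 2 with cisplatin and 0 and 4 with vancomycin. That made 33.3%, 33.3% and 66.7%, beside 21.0%, 59.8% and 57.9% of all genes.

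Of the co-repressors that sit on RBPJ or HES proteins, 0 were higher and 3 lower of 9 with iohexol, 1 and 5 with cisplatin and 1 and 4 with vancomycin. The share passing was 33.3%, 66.7% and 55.6%, beside 21.0%, 59.8% and 57.9% of all genes. TLE3, a Groucho-type partner of HES proteins, was at 40.4 ± 4.22 CPM in the control group, 19.5 ± 3.17 with iohexol (-1.03, adjusted p = 0.000277) and 51.8 ± 1.32 with cisplatin (0.36, adjusted p = 0.0014). It was at 45.8 ± 4.86 with vancomycin (0.14, adjusted p = 0.298). CIR1, a co-repressor of RBPJ, was at 9.26 ± 1.06 CPM in the control group and 22.7 ± 1.19 with vancomycin (1.25, adjusted p = 2.79e-08), with 10.55% of its sequence shared with other genes.

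Ubiquitin ligases on the ligand side gave 2 higher and 0 lower of 4 with iohexol, 1 and 2 with cisplatin and 1 and 2 with vancomycin. MIB1, which lets ligands be pulled into the sending cell, was at -0.17 (adjusted p = 0.24), -0.29 (adjusted p = 0.00131) and -0.56 (adjusted p = 1.90e-05) with the 3 drugs in the same order, and the cisplatin value became -0.08 with library size only (adjusted p = 0.328, the highest of a range from 0.000108). NEURL1B had 62 to 85 reads in the control samples and 9 to 23 with cisplatin. It entered the cisplatin comparison through the counts of the control samples, so neither a p nor a fold is given. It is 1 of the 2 genes counted as lower there. It overlaps a pseudogene on the opposite strand that held 489 reads beside its own 581 over all samples. NEURL1 had 4 to 13 reads in control and 19 to 31 in iohexol samples. It entered the iohexol comparison through the counts of the iohexol samples, so neither a p nor a fold is given. It is 1 of the 2 genes counted as higher there. The NEURL1 call was lost without control replicate 2 or 3 or iohexol replicate 1 or 2.

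Genes that hold the pathway back or turn its proteins over gave 1 higher and 1 lower of 10 with iohexol, 4 and 5 with cisplatin and 3 and 5 with vancomycin. NUMB, an endocytic adaptor that opposes Notch, was at -0.01 (adjusted p = 0.945), -0.41 (adjusted p = 8.70e-05) and -0.24 (adjusted p = 0.028) with iohexol, cisplatin and vancomycin. The last call was lost without control replicate 2, vancomycin replicate 1 or vancomycin replicate 3 (-0.25, -0.20 and -0.25) and with no filter on low counts (-0.26), within an adjusted p of 0.00471 to 0.108. FBXW7, the ubiquitin ligase subunit that marks the intracellular domain for destruction, was at -0.23 (adjusted p = 0.152), -0.28 (adjusted p = 0.0149) and -0.41 (adjusted p = 0.00379). Its cisplatin call was lost without cisplatin replicate 1 (-0.25) and with library size only (-0.06), where its adjusted p of 0.592 was the highest of a range from 0.00907. DTX1, a Deltex ligase, had 16 to 33 reads in control and 5 to 14 in cisplatin samples. It entered the cisplatin comparison through the counts of the control samples, so neither a p nor a fold is given. It is 1 of the 5 genes counted as lower there.

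Other ligands and receptors were scarce, and of 7 genes 3, 3 and 4 were tested, with 1 higher and 0 lower for iohexol, 1 and 2 for cisplatin and 2 and 0 for vancomycin. DLL3, an atypical Delta ligand, was at 11.5 ± 0.820 CPM in the control group and 23.2 ± 1.76 with iohexol (1.03, adjusted p = 0.000153), and at 15.9 ± 1.53 with cisplatin (0.47, adjusted p = 0.00267). DLL4, a Delta ligand of vessels, had 0, 0 and 1 reads in the control samples and 16, 13 and 15 with vancomycin, with 3, 6 and 2 in the iohexol and 15, 6 and 10 in the cisplatin samples. It was tested in the vancomycin comparison alone, which it entered through the counts of the vancomycin samples, so neither a p nor a fold is given, and it is 1 of the 2 genes counted as higher there. DNER, a neuronal Notch ligand, was higher with vancomycin (1.68, adjusted p = 1.24e-05). It was called lower with cisplatin, on 5 to 73 reads per sample in these 3 groups. DNER entered the cisplatin comparison through the counts of the control samples, so neither a p nor a fold is given there. The cisplatin call was lost without control replicate 3 or any 1 of cisplatin replicates 1 and 2 and with library size only. DLL1 and NOTCH4 did not pass the filter, with group means of at most 0.274 and 1.02 CPM. Of the other HES and HEY family members, 2 were higher and 1 lower of 4 with iohexol, 2 and 2 with cisplatin and 1 and 1 with vancomycin. BHLHE41, a related repressor of the circadian clock, went from 39.0 ± 0.319 CPM to 16.3 ± 2.07 with cisplatin (-1.26, adjusted p = 9.31e-09) and to 61.8 ± 2.63 with iohexol (0.68, adjusted p = 0.000339). With vancomycin it was also higher, at 53.6 ± 4.39 CPM (0.41, adjusted p = 0.0014).

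For each member that was a DEG with any drug, the protein-coding genes with the nearest profile were found among 12669 genes of at least 1 CPM, by the root mean square difference of log2 CPM from the control mean over the 12 samples. JAG1 was nearest to MT2A (0.252), a metallothionein that binds metal ions, and GDF6, a BMP family growth factor, was also among the 3 nearest (0.361). MT2A was at 1045, 244, 318 and 495 CPM in the control, iohexol, cisplatin and vancomycin groups, but 10.66% of its sequence is shared with other metallothionein genes. HES1 was nearest to CNRIP1 (0.198), NPW (0.21) and the AP-1 subunit FOSL1 (0.212). FOSL1 was at 109 CPM in the control group and 45.0, 96.7 and 129 with the 3 drugs in the same order.

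HES4 lay nearest to RRAD (0.183), a small GTPase, DRAP1 (0.208), a transcriptional co-repressor, and the ribosomal protein gene RPL35 (0.221), of which 22.9% is shared with pseudogenes. For HEY1 they were IL7R (0.261), TRAF1 (0.315) and TNFRSF8 (0.352), genes of cytokine and TNF receptor signalling. For NRARP they were DCAF12L1 (0.186), BRI3BP (0.191) and TRIM59 (0.193), which shares 34.3% of its 31-base sequences with other genes, and for HEYL, at larger distances, CKMT2 (0.549), AREG (0.58) and B3GALT5 (0.586). AREG, an EGF receptor ligand, was at 173, 78.3, 182 and 55.6 CPM in the 4 groups in the same order. Likeness was measured over 4 treatments only and is a description.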

How the data were processed

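RNA-seq data of 12 HK-2 samples in 4 groups were used. The authors deposited raw, whole-number read counts for 58735 genes, with no scaling applied. The submitters' processing notes name CASAVA 1.8, fastp, HISAT2 2.0.5, featureCounts 1.5.0-p3 and DESeq2 1.20.0, without roles; the strand setting and annotation are not given in the sources used here, and gene positions matched GENCODE 29. No per-sample column was left unused. Groups and replicate numbers came from the sample labels.

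Counts were tested with edgeR 4.0.16 in R 4.3.3 (TMM, filterByExpr with a minimum of 10 and a total of 15 counts, glmQLFit and glmQLFTest, Benjamini-Hochberg adjustment over all genes tested), in 1 fit per drug with the 3 control samples. Differences between drugs came from contrasts in a fit of all 12 samples. The standard error is the log2 fold change divided by the square root of F. Shares were tested by exact two-sided permutation over 10 splits (scipy 1.17.1). CPM used totals times TMM factors, and log2 CPM a prior count of 2. A floor of 3 counts was 0.165 to 0.213 CPM per sample, taken on the totals without TMM factors, and covers counting error only. The steps were tested on simulated counts. Alternatives were DESeq2 1.42.0, limma-voom (limma 3.58.1), RLE factors, library size only, 2 other filters, a fit of all 4 groups, a replicate block, shares without gene length and each sample left out.

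The members, the 8 lists and the marker lists were chosen with earlier results of these data known. Named genes were the 10 members, list genes that were DEGs in any comparison, a set named whatever its values (ADAM10, ADAM17, PSEN2, NCSTN, RBPJ, MAML1, MIB1, LFNG, MFNG, RFNG, NUMB, FBXW7, DLL1, DLL4, NOTCH4), and the 3 nearest profiles of each member that was a DEG; some genes that the rule covers are kept in the counts but not reported here by name. Shared sequence is the percent of 31-base sequences of a gene, taken every 5 bases, that occur in another gene. Promoter sequences and the TGGGAA matches came from RefSeq on GRCh38.p14.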

Additional observations from a re-analysis of the deposited data

How the results depend on the processing

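Library size only moved the median change over all genes by 0.22 (log2) with cisplatin, where 68.0% of the genes passing were then higher in place of 48.9%, and with iohexol 67.3% in place of 53.4%. Under it 4 members were higher with cisplatin, HES1 and NRARP being added, 1 was lower with cisplatin than with iohexol, and 1 was higher and 5 lower with vancomycin than with cisplatin. It also turned HES1 with vancomycin (-0.0412), NOTCH2 and NOTCH3 in vancomycin against iohexol (-0.0530 and -0.0685), and NOTCH3 and HES1 in vancomycin against cisplatin (-0.0327 and -0.305). The value of NOTCH2 with vancomycin, near 0 throughout, was positive with DESeq2 (0.0013), RLE factors (0.0013), at least 10 counts in every sample (0.0144) and the fit of all 4 groups (0.0401). HES1 in vancomycin against cisplatin was -0.0034 with DESeq2 and -0.0035 with RLE factors. With iohexol the 4 members that were lower became 6 in the fit of all 4 groups, which added NOTCH3 (-0.255) and NRARP (-0.377), and 5 with no filter on low counts, which added NOTCH3 (-0.274). Requiring at least 10 counts in every sample removed HEYL and left 1 down-regulated DEG with vancomycin and 1 gene lower in vancomycin against cisplatin. Without division by gene length the JAG1 share fell by 13.01 points with iohexol and fell by 4.225 with cisplatin.

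With each sample left out in turn, members higher with cisplatin numbered 1 to 2 and down-regulated DEGs with vancomycin 1 to 2. Fold changes that crossed 0 ran from -0.0484 to 0.109 for NRARP with cisplatin, -0.0233 to 0.0930 for HES1 with cisplatin, -0.112 to 0.155 for NOTCH2 and -0.0767 to 0.128 for HES1 with vancomycin, -1.41 to 0.0372 for HEYL in vancomycin against iohexol and -0.0835 to 0.125 for HES1 in vancomycin against cisplatin. Over all genes, those lower with iohexol numbered 1529, 915 with the replicate block, 2294 in the fit of all 4 groups, and 822 to 2167 with a sample left out.

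The replicate numbers are shared between groups, but same-numbered samples did not deviate together (mean correlation -0.02 over 18 pairs, 0.01 over 36 other pairs), and 2 of 12 samples correlated best with their own number. With the replicate block 4 members were lower with iohexol, 5 with cisplatin and 5 with vancomycin, the same numbers as without it. The cause of these changes was not tested. HEYL, DLL4 and NEURL1 rested on few reads, and smaller changes in them were not detectable at this depth.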
